A study of Homo sapiens with 12 samples.

Results

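Cell cycle and mitosis genes were followed in Ishikawa cells, a human line derived from an endometrial adenocarcinoma, on 12 expression arrays. The list held 46 genes, 18 that act at the G1/S boundary and in DNA replication and 28 that act in G2 and mitosis (G2/M). Of these, 42 had a named probe set in the platform annotation, all 18 G1/S genes and 24 of the 28 G2/M genes, among 14884 genes tested in all. CENPE, CENPF, TPX2 and DLGAP5 were not analysed here. Each of the 42 genes had 1 named probe set. The 4 labelled groups held 3 arrays each: shMOF ERα(+), control ERα(+), shMOF ERα(-) and control ERα(-). In the labels, shMOF stands for a short hairpin against MOF, an enzyme that acetylates histones and is the product of KAT8. ERα is an oestrogen receptor, the product of ESR1. All groups are of the same line. How the ERα(+) and ERα(-) conditions were made, what hairpin the control cells carry, whether the shMOF cells are a single clone and whether replicates are separate cultures is not stated by the labels. The spread behind each p-value is that among these arrays and may be technical.

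Cells commit to division in G1, when cyclin-dependent kinases inactivate the retinoblastoma protein and free the E2F factors. E2F factors switch on the genes that load and start the replicative helicase, supply nucleotides and copy DNA. Later in the cycle the MuvB complex, with B-MYB and FOXM1, switches on the genes of mitotic entry, chromosome segregation and cytokinesis. Many of those genes carry a cell cycle homology region (CHR) close to their start, often with CCAAT boxes upstream. In the endometrium, oestrogen drives the epithelium to proliferate before ovulation.

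The promoters of the listed genes differ by phase in the letters they hold. RefSeq promoter windows (GRCh38.p14, from 250 bases before to 50 bases after the first listed start) matched 34 of the 42 measured genes, 14 of G1/S and 20 of G2/M. Without a match were CCNE2, E2F8, MCM4, MCM5, AURKA, TTK, BIRC5 and FOXM1. The windows below belong to the 3 G1/S genes with the smallest p for shMOF against control in ERα(+) and to 3 G2/M genes, KIF11 and HMMR, which were higher there, and PLK1, which was lower. Each is printed 5′ to 3′ on the strand of its gene. They lie at chr3:127598161-127598460 (MCM2, plus strand), chr19:4909251-4909550 (UHRF1, plus), chr20:33686336-33686635 (E2F1, minus), chr16:23678639-23678938 (PLK1, plus), chr10:92592880-92593179 (KIF11, plus) and chr5:163460382-163460681 (HMMR, plus). Capitals mark matches to an E2F site (TTCCCGC or TTCGCGC or TTGCCGC or TTGGCGC), a CHR (TTTGAA) or a CCAAT box, each on either strand.
MCM2: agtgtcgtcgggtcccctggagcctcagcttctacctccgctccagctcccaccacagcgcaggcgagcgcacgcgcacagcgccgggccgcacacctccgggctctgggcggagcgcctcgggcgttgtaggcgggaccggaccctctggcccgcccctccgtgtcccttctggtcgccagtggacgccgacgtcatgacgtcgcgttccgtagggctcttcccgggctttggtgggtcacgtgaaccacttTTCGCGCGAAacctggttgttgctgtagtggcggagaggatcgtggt
UHRF1: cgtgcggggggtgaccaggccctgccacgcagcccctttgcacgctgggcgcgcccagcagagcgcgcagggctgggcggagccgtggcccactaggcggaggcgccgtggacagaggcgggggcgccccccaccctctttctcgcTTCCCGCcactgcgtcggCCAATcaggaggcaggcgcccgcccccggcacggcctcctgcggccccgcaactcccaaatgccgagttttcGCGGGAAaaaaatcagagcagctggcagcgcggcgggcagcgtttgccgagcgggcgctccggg
E2F1: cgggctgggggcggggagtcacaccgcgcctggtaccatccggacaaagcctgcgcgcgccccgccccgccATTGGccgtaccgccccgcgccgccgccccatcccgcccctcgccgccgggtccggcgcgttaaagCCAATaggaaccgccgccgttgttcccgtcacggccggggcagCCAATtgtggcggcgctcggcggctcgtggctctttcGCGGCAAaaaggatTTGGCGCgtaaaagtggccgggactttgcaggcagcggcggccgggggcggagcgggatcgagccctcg
PLK1: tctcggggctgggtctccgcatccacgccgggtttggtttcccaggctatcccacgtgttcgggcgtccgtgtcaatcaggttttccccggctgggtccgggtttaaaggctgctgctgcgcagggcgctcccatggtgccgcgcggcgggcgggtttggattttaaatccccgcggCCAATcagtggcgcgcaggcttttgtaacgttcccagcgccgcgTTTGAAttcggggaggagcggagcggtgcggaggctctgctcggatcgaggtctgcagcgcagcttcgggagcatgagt
KIF11: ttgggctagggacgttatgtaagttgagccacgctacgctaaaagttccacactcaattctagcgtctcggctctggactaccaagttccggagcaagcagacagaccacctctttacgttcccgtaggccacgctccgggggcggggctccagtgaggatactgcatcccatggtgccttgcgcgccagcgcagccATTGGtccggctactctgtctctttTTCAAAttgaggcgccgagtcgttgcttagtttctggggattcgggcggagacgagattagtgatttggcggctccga
HMMR: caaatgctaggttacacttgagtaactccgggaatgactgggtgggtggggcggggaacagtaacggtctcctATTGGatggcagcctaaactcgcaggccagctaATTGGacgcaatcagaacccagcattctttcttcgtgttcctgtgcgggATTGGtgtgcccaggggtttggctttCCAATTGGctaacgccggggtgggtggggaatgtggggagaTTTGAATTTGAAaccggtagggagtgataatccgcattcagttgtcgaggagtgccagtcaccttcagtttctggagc

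An E2F match stood in 12 of 14 G1/S windows (85.7%), in 5 of 20 G2/M windows and in 17.4% of the 10749 windows of tested genes. A CHR match stood in 0 of 14 G1/S windows, in 14 of 20 G2/M windows (70.0%) and in 11.8% of the windows of tested genes. CCAAT boxes were frequent in both phases, in 10 of 14 G1/S windows and in 17 of 20 G2/M windows, against 36.0% of the windows of tested genes. CHR and CCAAT together stood in 12 of 20 G2/M windows and in 4.86% of the windows of tested genes. Counted from the start site at 0, the first base of the CHR lay at -29 in PLK1, at -28 in KIF11, on the reverse strand, and at -28 and -22 in HMMR. Matches on the opposite strands can overlap, as both E2F matches of MCM2 do and as the last CCAAT pair of HMMR does. Over every listed start of a gene, the counts were 13 of 14 G1/S genes for E2F and 15 of 20 G2/M genes for the CHR, with 0 of 14 G1/S genes for the CHR, against 20.6% (E2F) and 15.3% (CHR) of tested genes. A match is a run of letters and was not tested as a binding site.

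The targeted gene did not follow the labels. KAT8 differed between shMOF and control arrays by 0.04 on the log2 scale in ERα(+) (95% interval -0.23 to 0.31) and by -0.015 in ERα(-) (95% interval -0.29 to 0.26). ESR1 lay at 4.28, 4.27 and 4.27 in shMOF ERα(+), 4.40, 4.65 and 4.32 in control ERα(+), 4.52, 4.39 and 4.34 in shMOF ERα(-) and 4.43, 4.12 and 4.28 in control ERα(-). Its probe set was dim, at percentile 27.1 of tested genes. On shMOF arrays ERα(+) lay below ERα(-) without overlap, against the order of the labels, by -0.15 (95% interval -0.41 to 0.12). On control arrays the groups overlapped, at a difference of 0.18 (95% interval -0.08 to 0.45). Every direction below is therefore between arrays as labelled. Of the epithelial markers, 6 of 8 were measured, and their mean level per array lay between 8.63 and 9.17. Their means were 11.53 (EPCAM), 10.71 (PAX8), 9.99 (KRT18), 8.30 (KRT19), 6.49 (KRT8) and 6.46 (CLDN4). Of the other cell types' markers, 3 of 7 fibroblast, 3 of 6 immune and 3 of 4 endothelial genes were measured. All lay below the median of tested genes (5.66) except the immune marker CD68, at 7.03, above KRT8 and CLDN4. Arrays correlated across genes with r between 0.965 and 0.994. The first principal component over all tested genes held 36.8% of the variance and ran from control ERα(+) replicate 3 (-32.9) to shMOF ERα(+) replicate 2 (29.8). In bulk RNA, fewer cells in a phase and less RNA per cell cannot be told apart.

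All 42 genes gave a bright signal. Their means over the 12 arrays lay between 7.37 and 10.68 on the log2 scale, above the 75th percentile of tested genes (7.23). Signals of different probe sets are not compared with one another. Replicates within a group varied by a median SD of 0.20 for the 42 genes and 0.19 for all tested genes.

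**Figure D1:**
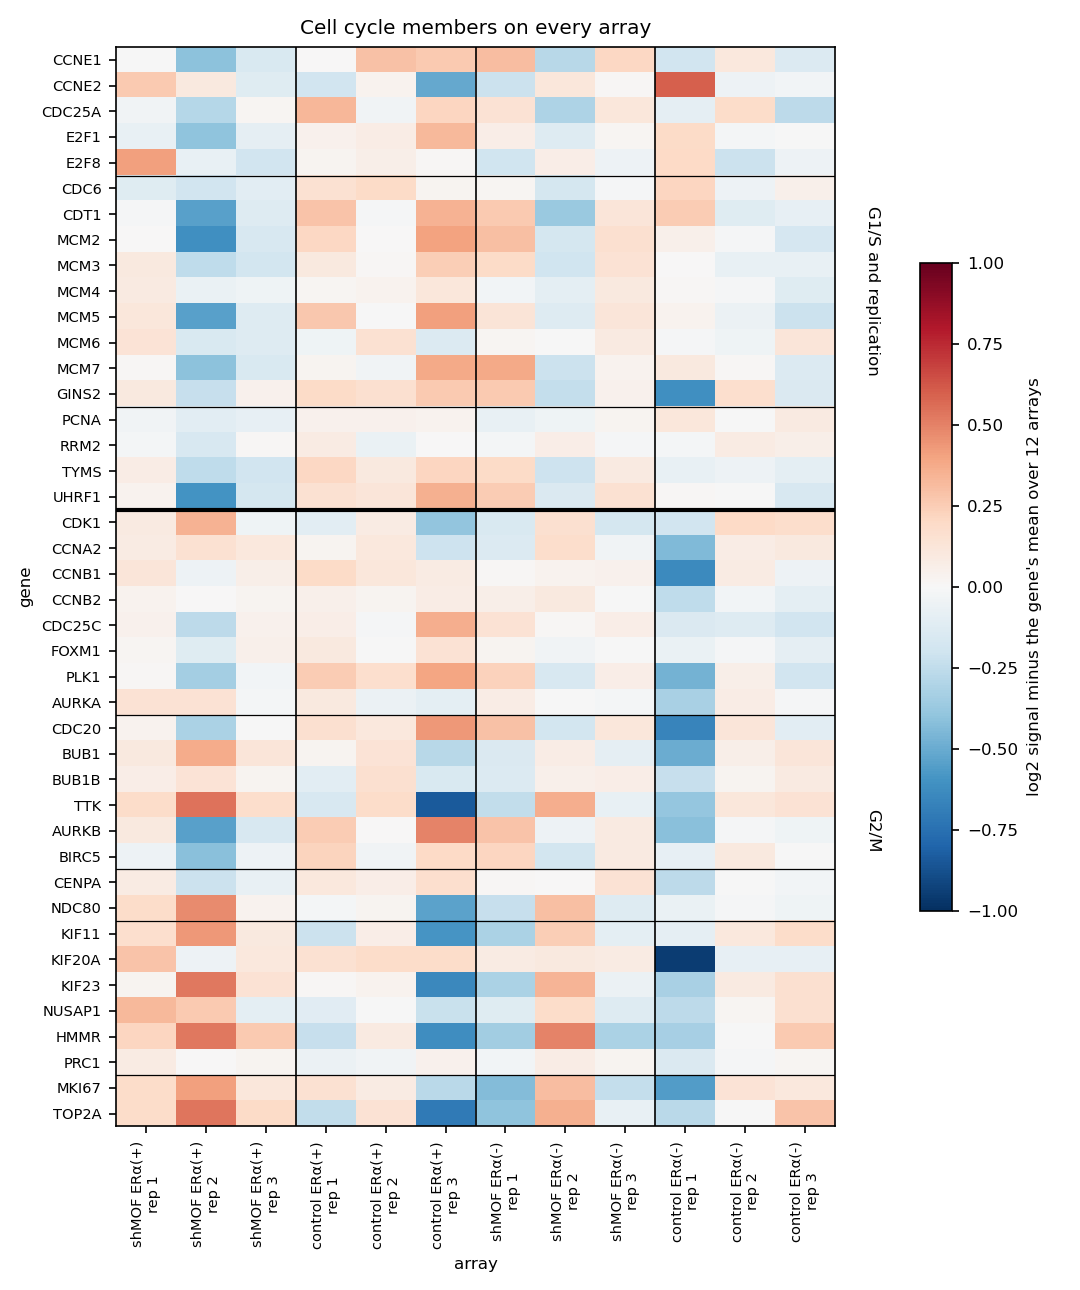
Each row is 1 of the 42 genes and each column 1 array, and colour gives the log2 signal minus the mean of that gene over the 12 arrays (blue low, red high). Thin horizontal lines part the roles and the thick one parts G1/S from G2/M. Column shMOF ERα(+) replicate 2 is blue for most G1/S genes, and column control ERα(-) replicate 1 is blue for every G2/M gene.

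Single arrays stood out in both phases. On shMOF ERα(+) replicate 2, 1 of 18 G1/S genes lay above its own mean over the arrays, and 13 of the 18 had their lowest value there. On control ERα(-) replicate 1, 0 of 24 G2/M genes lay above their own mean, and 13 of the 24 had their lowest value there. Control ERα(+) replicate 3 held the highest value of 9 of 18 G1/S genes, and among G2/M genes the lowest of 7 and the highest of 6. These 3 arrays stood apart from the others of their groups, so counts are also given without them. This choice was made after the data were seen, and it left in shMOF ERα(-) replicate 2, which also stood apart. The mean deviation of that array over the G1/S genes was -0.14, against 0.11 and 0.075 in replicates 1 and 3 of its group. Counts without the 3 arrays can therefore still depend on it. Averaged over the 18 G1/S genes, the deviation from each gene's mean was -0.11 ± 0.17 in shMOF ERα(+), 0.11 ± 0.05 in control ERα(+), 0.02 ± 0.13 in shMOF ERα(-) and -0.01 ± 0.06 in control ERα(-) (SD, n = 3 arrays each). Over the 24 G2/M genes it was 0.09 ± 0.04 in shMOF ERα(+), -0.01 ± 0.10 in control ERα(+), 0.01 ± 0.09 in shMOF ERα(-) and -0.09 ± 0.22 in control ERα(-). For G1/S the ERα(+) groups were apart by less than the last digit, shMOF reaching up to 0.06 and control down to 0.06, and control arrays of ERα(+) lay above those of ERα(-), while every pair of groups compared overlapped for G2/M.

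**Figure D2:**
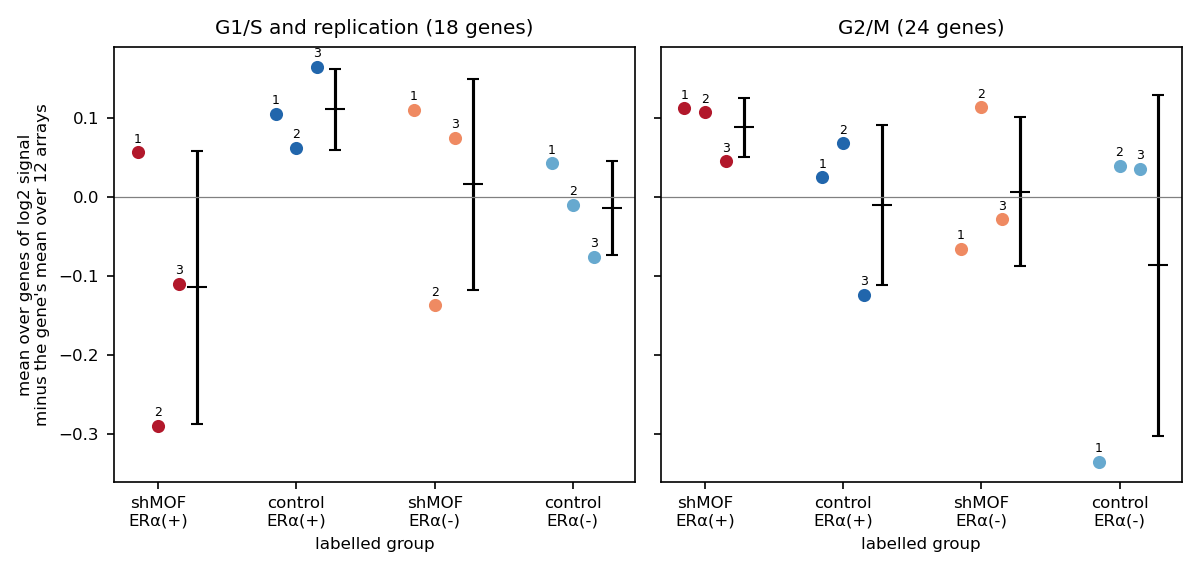
Points are arrays, numbered by replicate, at the mean over the genes of a phase of log2 signal minus each gene's mean over 12 arrays; bars give the group mean and SD over 3 arrays. Replicate 2 of shMOF ERα(+) lies at -0.29 for G1/S, and replicate 1 of control ERα(-) at -0.33 for G2/M.

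In ERα(+), most of the listed G1/S genes had a lower mean on arrays labelled shMOF than on their controls, with no gene past the test. Of the 18 G1/S genes, 16 had a log2 fold change below 0, as did 8367 of the 14884 tested genes, and the median was -0.27 against -0.04 over all tested genes. All 9 genes of origin licensing and the helicase were below 0. The differences were small, up to 0.46 on the log2 scale. limma called 0 of 42 genes at an adjusted p below 0.05 (background 0%), and 0 of the 14884. At an unadjusted p below 0.05 stood 15 of the 42 genes, 35.7%, against 18.7% of all tested genes. With array quality weights, an alternative in which arrays count unequally, limma called 5 of the 42: CDT1, MCM2, MCM5 and TYMS lower, and HMMR higher. Those 5 are 11.9% of the genes listed, near the 10.9% of all tested genes that the weighted test called. Without the 3 arrays that stand apart, 16 of 18 G1/S genes were still below 0, the median was -0.13, and 0 of the 42 had an unadjusted p below 0.05. That count was also 0 without shMOF ERα(+) replicate 2 alone and 1 without control ERα(+) replicate 3 alone. The shares of all tested genes at the unadjusted threshold are not given for these fits.

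**Figure D3:**
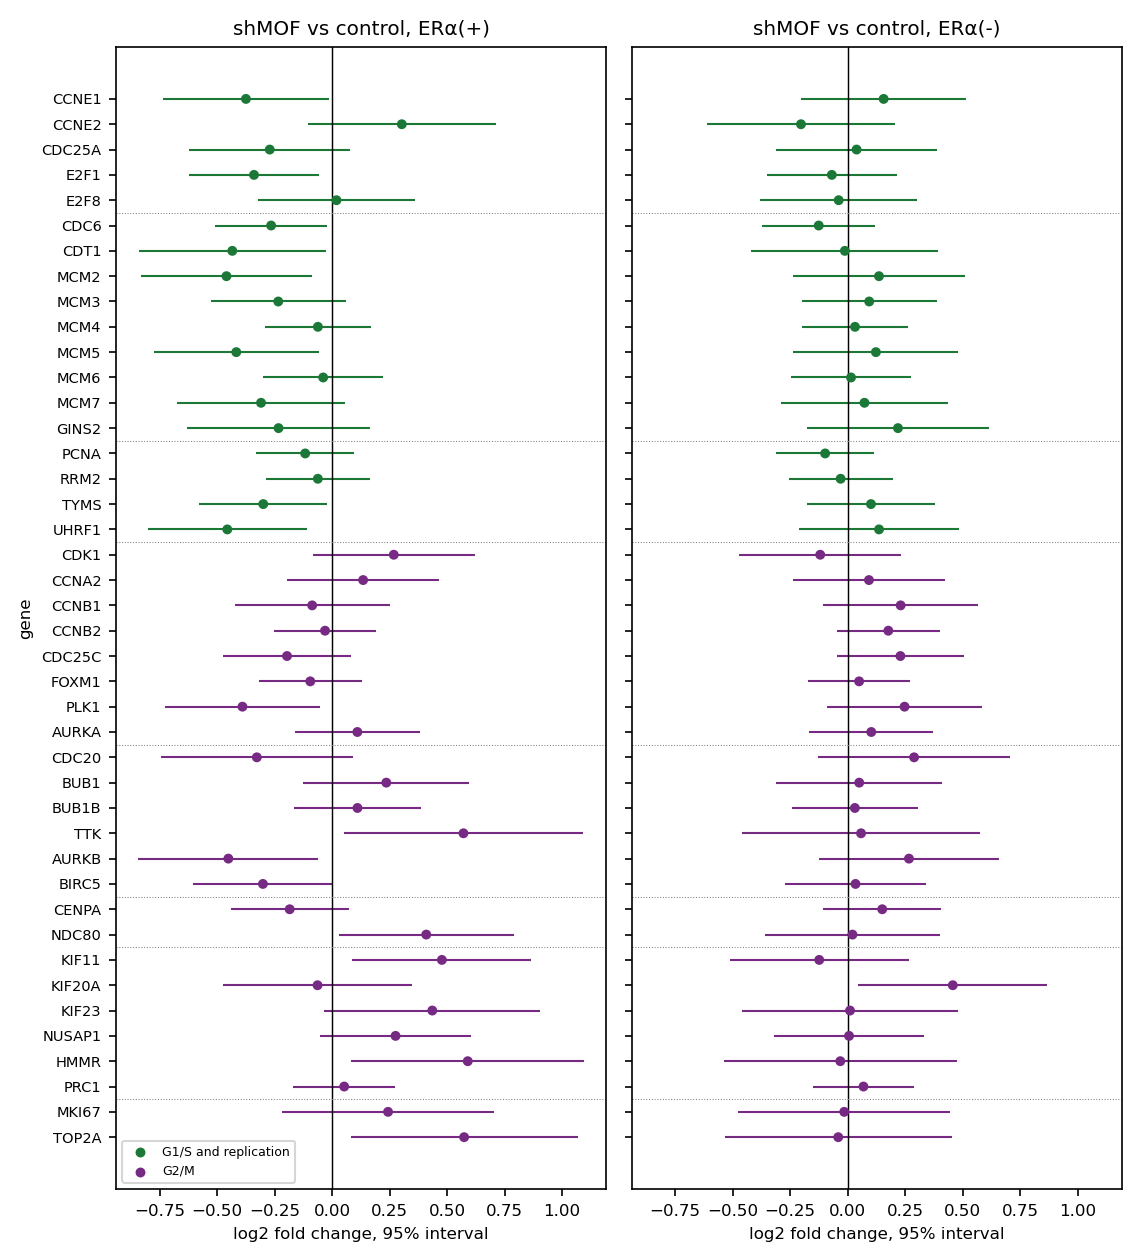
Points give the log2 fold change of shMOF over control for each gene, with its 95% interval from limma, in ERα(+) on the left and ERα(-) on the right. In ERα(+) 16 of the 18 G1/S genes (green) lie left of 0, whereas G2/M genes (purple) lie on both sides; the intervals are not adjusted for the number of genes.

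Differences below are log2 fold changes, shMOF minus control or ERα(+) minus ERα(-), each with its standard error from limma. The groups did not overlap, all shMOF ERα(+) arrays being below all control ERα(+) arrays, for 8 of the 18 G1/S genes, against 14.1% of tested genes. Among the genes of the G1/S switch, cyclin E1 (CCNE1), which activates the kinase that starts S phase, was at 8.93, 8.52 and 8.78 in shMOF ERα(+), 8.94, 9.22 and 9.20 in control ERα(+), 9.24, 8.65 and 9.14 in shMOF ERα(-) and 8.74, 9.03 and 8.79 in control ERα(-). Its shMOF values in ERα(+) all lay below the control values, and it differed by -0.37 ± 0.17 (limma's adjusted p = 0.256). E2F1 (probe set 16918445, chromosome 20, 33675477 to 33686385, GRCh38.p14), an activating E2F factor, was at 7.51, 7.18 and 7.49 in shMOF ERα(+), 7.63, 7.66 and 7.91 in control ERα(+), 7.65, 7.46 and 7.61 in shMOF ERα(-) and 7.78, 7.56 and 7.58 in control ERα(-). It too did not overlap in ERα(+), with shMOF replicate 2 the lowest of the 12 arrays, and differed by -0.34 ± 0.13 (adjusted p = 0.229 in limma). Without that array E2F1 differed by -0.23. CDC25A, a phosphatase that activates cyclin-dependent kinases, differed by -0.27 ± 0.16, with overlapping groups. The exceptions were the other cyclin E gene, CCNE2, at 0.30 ± 0.19, and E2F8, a repressing E2F factor, at 0.019 ± 0.16. CCNE2 was at 8.85, 8.68 and 8.46 in shMOF ERα(+), 8.39, 8.61 and 8.07 in control ERα(+), 8.37, 8.69 and 8.595 in shMOF ERα(-) and 9.18, 8.53 and 8.56 in control ERα(-). Its highest value was on control ERα(-) replicate 1 and its lowest on control ERα(+) replicate 3, both control arrays. Without the second of these its difference was 0.16, and that of CDC25A was -0.18 without shMOF ERα(+) replicate 2.

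CDC6 and CDT1 load the helicase ring of MCM proteins onto replication origins. CDC6 was at 8.43, 8.36 and 8.45 in shMOF ERα(+), 8.70, 8.75 and 8.58 in control ERα(+), 8.57, 8.38 and 8.54 in shMOF ERα(-) and 8.77, 8.501 and 8.61 in control ERα(-). Its ERα(+) groups did not overlap, with a narrow spread on both sides, and it differed by -0.27 ± 0.11 (limma's adjusted p = 0.248). CDT1 differed by -0.43 ± 0.19, but shMOF replicate 1 and control replicate 2, both at 7.94, met. MCM2 (probe set 16945101, chromosome 3, 127598411 to 127622436, GRCh38.p14), a subunit of the ring, was at 8.34, 7.72 and 8.17 in shMOF ERα(+), 8.54, 8.34 and 8.73 in control ERα(+), 8.63, 8.16 and 8.49 in shMOF ERα(-) and 8.38, 8.32 and 8.17 in control ERα(-). Its shMOF ERα(+) value nearest to the control arrays, 8.34 in replicate 1, rounds to the same as the lowest control value, so that the separation is by less than the last digit, and the difference was -0.46 ± 0.17 (adjusted p = 0.228 in limma). MCM5 was at 8.16, 7.50 and 7.91 in shMOF ERα(+), 8.32, 8.04 and 8.46 in control ERα(+), 8.17, 7.92 and 8.17 in shMOF ERα(-) and 8.08, 7.98 and 7.83 in control ERα(-), with 1 shMOF value above the lowest control value and a difference of -0.42 ± 0.17. The other ring subunits differed by -0.31 ± 0.17 (MCM7), -0.23 ± 0.14 (MCM3), -0.062 ± 0.11 (MCM4) and -0.039 ± 0.12 (MCM6), all with overlapping groups. GINS2, a subunit of the complex that starts the helicase, was at 8.11, 7.79 and 8.05 in shMOF ERα(+), 8.20, 8.17 and 8.28 in control ERα(+), 8.28, 7.77 and 8.06 in shMOF ERα(-) and 7.40, 8.19 and 7.87 in control ERα(-). Its ERα(+) groups did not overlap, at a difference of -0.23 ± 0.18, and its lowest value by far was on control ERα(-) replicate 1. Without shMOF ERα(+) replicate 2, the differences were -0.28 for MCM2, -0.28 for CDT1, -0.24 for MCM5 and -0.13 for GINS2, and without control ERα(+) replicate 3 that of MCM7 was -0.18.

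Of the genes that act at the fork, UHRF1, which brings the maintenance DNA methyltransferase to new DNA, had the smallest p of the 42 in ERα(+). UHRF1 (probe set 16857258, chromosome 19, 4903080 to 4962154, GRCh38.p14) was at 8.44, 7.81 and 8.23 in shMOF ERα(+), 8.56, 8.53 and 8.76 in control ERα(+), 8.67, 8.26 and 8.56 in shMOF ERα(-) and 8.42, 8.41 and 8.25 in control ERα(-). The ERα(+) groups did not overlap, shMOF replicate 2 being the lowest of all arrays and control replicate 3 the highest, and the difference was -0.46 ± 0.16, a ratio of 0.729 (limma's adjusted p = 0.223). Without shMOF replicate 2 the difference was -0.28, and without the 3 arrays it was -0.21. Thymidylate synthase (TYMS), which makes the thymidine nucleotide, was at 9.99, 9.66 and 9.73 in shMOF ERα(+), 10.12, 10.02 and 10.14 in control ERα(+), 10.11, 9.71 and 10.01 in shMOF ERα(-) and 9.84, 9.87 and 9.82 in control ERα(-). Its ERα(+) groups were apart, and it differed by -0.30 ± 0.13. PCNA, the sliding clamp of the polymerases, was at 10.42, 10.36 and 10.38 in shMOF ERα(+), 10.51, 10.51 and 10.50 in control ERα(+), 10.39, 10.42 and 10.49 in shMOF ERα(-) and 10.57, 10.46 and 10.55 in control ERα(-). It varied little, and its ERα(+) groups were apart by a small margin at a difference of -0.12 ± 0.10. RRM2, a subunit of ribonucleotide reductase, differed by -0.062 ± 0.11, with overlapping groups.

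G2/M genes were split in ERα(+). Of the 24, 14 were above 0 and 10 below, with a median of 0.11 against -0.04 over all tested genes. The groups did not overlap for 4 that were higher in shMOF arrays (NDC80, KIF11, HMMR and TOP2A), against 12.2% of tested genes in that direction. They did not overlap for 3 that were lower (PLK1, CDC20 and BIRC5), against 14.1%. The spindle and cytokinesis genes were above 0 in 5 of 6 cases with a median of 0.36, and the genes of mitotic entry were below 0 in 5 of 8 with a median of -0.06. Without the 3 arrays that stand apart, 16 of the 24 G2/M genes were above 0.

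KIF11 (probe set 16707468, chromosome 10, 92593130 to 92655395, GRCh38.p14), the motor that pushes spindle poles apart, was at 9.94, 10.21 and 9.88 in shMOF ERα(+), 9.57, 9.85 and 9.19 in control ERα(+), 9.46, 10.02 and 9.68 in shMOF ERα(-) and 9.69, 9.88 and 9.96 in control ERα(-). All shMOF ERα(+) arrays lay above the control ERα(+) arrays, whose replicate 3 was the lowest of the 12, and the difference was 0.48 ± 0.18 (limma's adjusted p = 0.228). Without control ERα(+) replicate 3 it was 0.30, and without the 3 arrays 0.20. HMMR (probe set 16991859, chromosome 5, 163460632 to 163491941, GRCh38.p14), which helps to assemble the spindle, was at 9.002, 9.32 and 9.05 in shMOF ERα(+), 8.55, 8.87 and 8.17 in control ERα(+), 8.44, 9.28 and 8.47 in shMOF ERα(-) and 8.45, 8.78 and 9.05 in control ERα(-). The ERα(+) groups did not overlap, but shMOF ERα(-) replicate 2 was nearly as high as the highest of them, and the difference in ERα(+) was 0.59 ± 0.24 (adjusted p = 0.235 in limma). For HMMR too the difference was smaller without control ERα(+) replicate 3, at 0.41. The midzone and cytokinesis genes KIF23, KIF20A and PRC1 differed by 0.44 ± 0.22, -0.063 ± 0.19 and 0.053 ± 0.10, and NUSAP1, a spindle microtubule protein, by 0.28 ± 0.15, all with overlapping groups. TOP2A (probe set 16844312, chromosome 17, 40388525 to 40417896, GRCh38.p14), which untangles sister DNA before segregation, was at 10.26, 10.61 and 10.26 in shMOF ERα(+), 9.83, 10.22 and 9.36 in control ERα(+), 9.67, 10.43 and 9.999 in shMOF ERα(-) and 9.80, 10.06 and 10.35 in control ERα(-). Its ERα(+) groups did not overlap, with control replicate 3 again the lowest array, and the difference was 0.57 ± 0.23, a ratio of 1.49 (limma's adjusted p = 0.235). Without control ERα(+) replicate 3, TOP2A stood at 0.35 and KIF23 at 0.22. MKI67, the protein that coats mitotic chromosomes and is stained to grade proliferation, was at 10.86, 11.08 and 10.79 in shMOF ERα(+), 10.83, 10.76 and 10.41 in control ERα(+), 10.24, 10.99 and 10.44 in shMOF ERα(-) and 10.12, 10.81 and 10.78 in control ERα(-). Its groups overlapped, and it differed by 0.24 ± 0.21 in ERα(+), or by 0.11 without that array.

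Among checkpoint genes, TTK, a kinase that starts spindle checkpoint signalling, differed by 0.57 ± 0.24 in ERα(+), while its checkpoint partners BUB1 and BUB1B differed by 0.24 ± 0.17 and 0.11 ± 0.13, all with overlapping groups. NDC80, the kinetochore protein that grips microtubules, differed by 0.41 ± 0.18 with groups apart, and CENPA, the centromeric histone, by -0.18 ± 0.12 with overlap. Without control ERα(+) replicate 3, TTK stood at 0.29, BUB1 at 0.12 and NDC80 at 0.23. The chromosomal passenger kinase AURKB (probe set 16840902, chromosome 17, 8204731 to 8210575, GRCh38.p14) was at 8.52, 7.88 and 8.26 in shMOF ERα(+), 8.67, 8.42 and 8.92 in control ERα(+), 8.70, 8.36 and 8.51 in shMOF ERα(-) and 8.0, 8.41 and 8.37 in control ERα(-). Its shMOF ERα(+) values reached from the lowest of all arrays to above 1 control value, and it differed by -0.45 ± 0.18 (limma's adjusted p = 0.236). BIRC5, its passenger partner, differed by -0.30 ± 0.14. CDC20, which activates the ubiquitin ligase that ends metaphase, was at 9.94, 9.59 and 9.90 in shMOF ERα(+), 10.07, 10.01 and 10.34 in control ERα(+), 10.20, 9.72 and 10.02 in shMOF ERα(-) and 9.25, 10.02 and 9.80 in control ERα(-). In ERα(+) its groups were apart at a difference of -0.33 ± 0.19, but its lowest value was on control ERα(-) replicate 1. Without shMOF ERα(+) replicate 2, AURKB stood at -0.28, BIRC5 at -0.18, CDC20 at -0.22 and CENPA at -0.11.

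The genes of mitotic entry were on both sides of 0. PLK1 (probe set 16817017, chromosome 16, 23678889 to 23690367, GRCh38.p14), a kinase needed from entry to cytokinesis, was at 10.31, 9.96 and 10.28 in shMOF ERα(+), 10.56, 10.47 and 10.69 in control ERα(+), 10.53, 10.14 and 10.36 in shMOF ERα(-) and 9.83, 10.36 and 10.11 in control ERα(-). In ERα(+) all shMOF arrays lay below all control arrays, and the difference was -0.39 ± 0.16 (limma's adjusted p = 0.236). CDK1, the kinase that drives entry, was at 8.98, 9.24 and 8.85 in shMOF ERα(+), 8.79, 8.98 and 8.502 in control ERα(+), 8.74, 9.05 and 8.72 in shMOF ERα(-) and 8.70, 9.09 and 9.07 in control ERα(-). It overlapped in ERα(+), with a difference of 0.27 ± 0.16 of the opposite sign, or 0.14 without control ERα(+) replicate 3. Its partner cyclin B1 (CCNB1) was at 9.47, 9.30 and 9.41 in shMOF ERα(+), 9.54, 9.46 and 9.43 in control ERα(+), 9.36, 9.38 and 9.40 in shMOF ERα(-) and 8.71, 9.44 and 9.30 in control ERα(-). Apart from control ERα(-) replicate 1 its values lay close together, and it differed by -0.087 ± 0.16. AURKA, a centrosome kinase, was at 7.52, 7.52 and 7.35 in shMOF ERα(+), 7.47, 7.31 and 7.27 in control ERα(+), 7.44, 7.36 and 7.35 in shMOF ERα(-) and 7.04, 7.45 and 7.36 in control ERα(-), with a difference of 0.11 ± 0.13. The remaining entry genes differed by 0.13 ± 0.15 (CCNA2), -0.031 ± 0.10 (CCNB2), -0.20 ± 0.13 (CDC25C) and -0.095 ± 0.10 (FOXM1), all with overlapping groups.

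**Figure D4:**
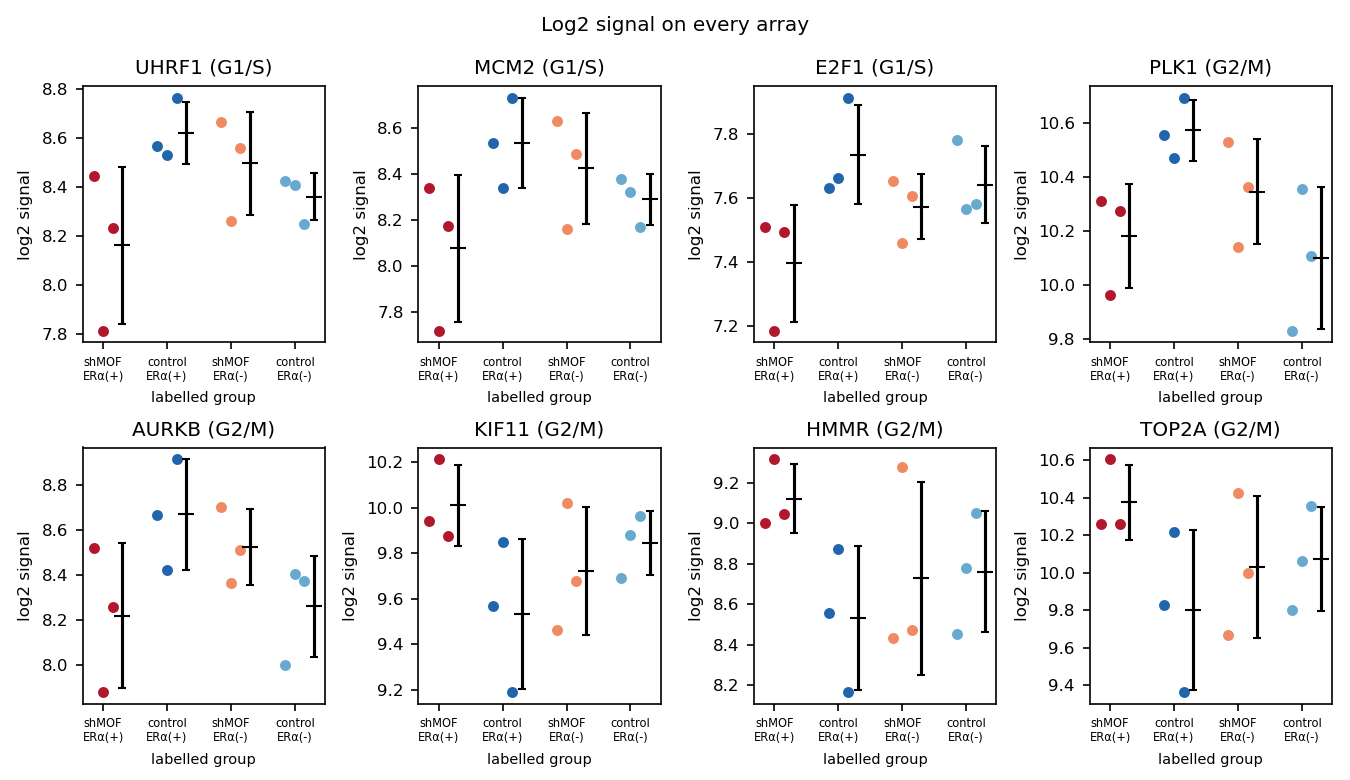
Points give the log2 signal of 8 genes on each array by labelled group; bars give the mean and SD over 3 arrays, and the vertical axes differ between genes and do not start at 0. In ERα(+), UHRF1, MCM2, E2F1 and PLK1 lie lower in shMOF than in control arrays and KIF11, HMMR and TOP2A higher, without overlap, while AURKB overlaps.

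Within G2/M, the difference ran with the length of the gene, in opposite directions in ERα(+) and ERα(-). Over the 24 genes, the log2 fold change in ERα(+) and the length of the gene with introns (RefSeq, GRCh38.p14) had a Spearman rho of 0.62, and between 0.61 and 0.68 when any single array was left out. In ERα(-), on other arrays, rho was -0.60, between -0.62 and -0.32 when any single array was left out, the weakest being without shMOF ERα(-) replicate 1. Over the 18 G1/S genes rho was 0.10 in ERα(+) and 0.18 in ERα(-), and over all 14884 tested genes 0.27 and -0.11. The order was not particular to the shMOF comparisons. For ERα(+) against ERα(-), which uses the same arrays, G2/M rho was -0.63 on control arrays and 0.59 on shMOF arrays. The share of G and C in the promoter window also ran with the difference, and not in G2/M alone. For the 20 G2/M genes with a window, its rho was -0.40 for shMOF in ERα(+) and 0.33 in ERα(-). For the 14 G1/S genes with a window it was -0.40 and 0.44. Over the 10749 tested genes with a window it was -0.097 and 0.054. The shortest G2/M gene, CDC20 (4223 bases), and AURKB (5845 bases) differed by -0.33 and -0.45 in ERα(+), whereas KIF11 (62266 bases) and NDC80 (45079 bases) differed by 0.48 and 0.41. CDC25C, at 53091 bases, stood against the order at -0.20. Genes are not independent replicates, every point shares the same arrays, and the correlations are given as a description.

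**Figure D5:**
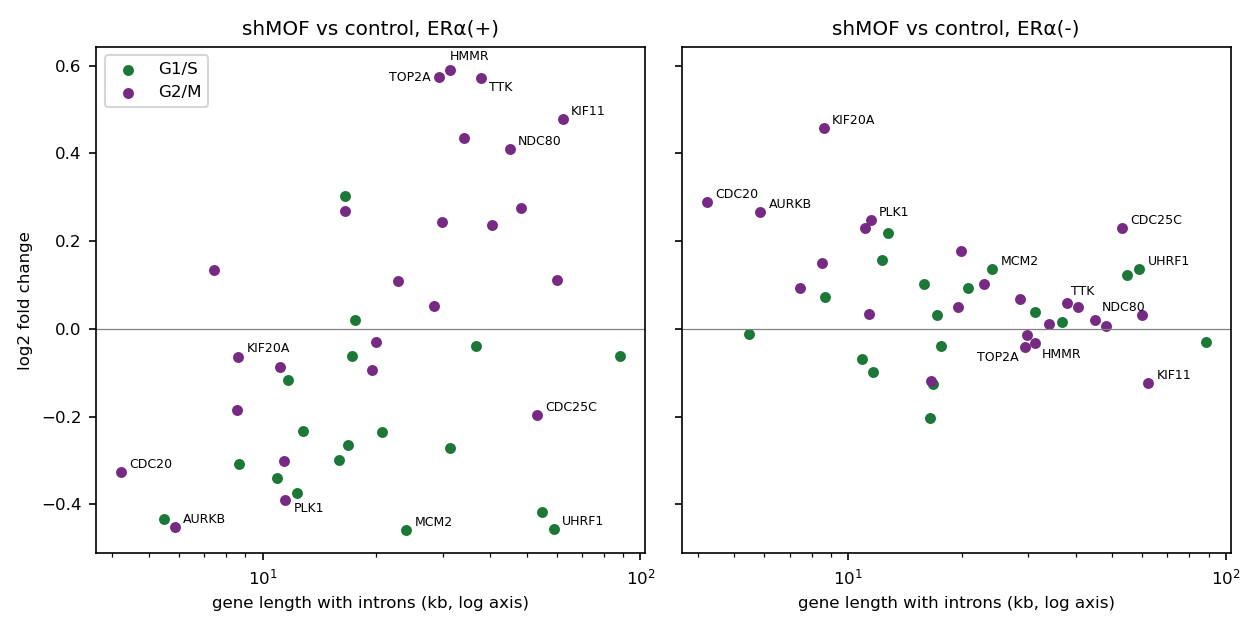
Each point is 1 gene at its length with introns (kb, log axis) and its log2 fold change of shMOF over control, in ERα(+) on the left and ERα(-) on the right. Long G2/M genes (purple) lie higher than short ones in ERα(+), with rho 0.62, and lower in ERα(-), with rho -0.60; G1/S genes (green) show rho of 0.10 and 0.18.

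In ERα(-), the arrays labelled shMOF and control differed little in the same genes. Of the 18 G1/S genes, 11 were above 0 with a median of 0.04, and of the 24 G2/M genes 19 were above 0 with a median of 0.05, against -0.003 over all tested genes. limma called 0 of the 42 (background 0%), and 1 of the 42 had an unadjusted p below 0.05, against 4.78% of tested genes. The groups did not overlap for 4 G2/M genes, all higher in shMOF arrays (background 4.11%), and for 0 of the 42 that were lower (background 4.66%). The 4 were KIF20A, CDC25C, CCNB2 and CENPA. KIF20A (probe set 16989636, chromosome 5, 138179112 to 138187723, GRCh38.p14), a motor of cytokinesis, was at 9.74, 9.41 and 9.56 in shMOF ERα(+), 9.61, 9.65 and 9.65 in control ERα(+), 9.54, 9.55 and 9.54 in shMOF ERα(-) and 8.51, 9.38 and 9.37 in control ERα(-). Control ERα(-) replicate 1, at 8.51, lay far below every other array, and the difference was 0.46 ± 0.19 (limma's adjusted p = 0.953). Without that array the difference was 0.17, 0 of the 42 had an unadjusted p below 0.05, and 11 rather than 19 of the 24 G2/M genes were above 0.

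CDC25C, a phosphatase that activates CDK1, was at 7.54, 7.23 and 7.54 in shMOF ERα(+), 7.56, 7.48 and 7.86 in control ERα(+), 7.64, 7.51 and 7.56 in shMOF ERα(-) and 7.35, 7.37 and 7.30 in control ERα(-). In ERα(-) all shMOF values lay above all control values, and it differed by 0.23 ± 0.13. CCNB2 was at 8.92, 8.89 and 8.91 in shMOF ERα(+), 8.94, 8.91 and 8.96 in control ERα(+), 8.95, 8.98 and 8.88 in shMOF ERα(-) and 8.63, 8.86 and 8.79 in control ERα(-). It was apart by a difference of 0.18 ± 0.10, and again control ERα(-) replicate 1 was the lowest. The other differences of PLK1 and CDC20 in ERα(-), 0.25 ± 0.16 and 0.29 ± 0.19, came with overlapping groups. Without control ERα(-) replicate 1 they were 0.11 and 0.067, and that of CCNB2 was 0.11. Among G1/S genes, GINS2 differed by 0.22 ± 0.18, CCNE2 by -0.20 ± 0.19 and CDC6 by -0.13 ± 0.11. Without control ERα(-) replicate 1, GINS2 stood at 0.011, and CCNE2 at 0.010, on the other side of 0, while CDC6 stood at -0.055. UHRF1 and MCM2, the G1/S genes with the smallest p in ERα(+), differed in ERα(-) by 0.14 ± 0.16 and 0.14 ± 0.17, with overlapping groups, and by 0.25 and 0.27 without shMOF ERα(-) replicate 2.

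Between the control arrays, ERα(+) stood above ERα(-) for most genes of both phases, 14 of 18 G1/S genes (median 0.15) and 16 of 24 G2/M genes (median 0.07), against a median of -0.002 over all tested genes. limma called 0 of the 42 (background 0%), and 6 of the 42 had an unadjusted p below 0.05, against 12.7% of tested genes. The groups did not overlap for 11 genes, all higher in ERα(+) (background 10.3%), and for 0 that were lower (background 8.92%). They were MCM3, MCM4, TYMS and UHRF1 of G1/S, and CCNB2, CDC25C, FOXM1, PLK1, AURKB, CENPA and KIF20A of G2/M. PLK1 had the smallest p, at a difference of 0.47 ± 0.16 (limma's adjusted p = 0.333), and KIF20A differed by 0.55 ± 0.19 (adjusted p = 0.333 in limma). CDC20 differed by 0.45 ± 0.19, AURKB by 0.41 ± 0.18 and CDC25C by 0.29 ± 0.13. GINS2 differed by 0.40 ± 0.18, TYMS by 0.25 ± 0.13 and CCNE2 by -0.40 ± 0.19, the last being lower in ERα(+). Without control ERα(+) replicate 3, CDC25C stood at 0.18. The array with the low G2/M signals is 1 of the 3 control ERα(-) arrays. Without it, KIF20A stood at 0.26, CDC20 at 0.22, GINS2 at 0.19 and CCNE2 at -0.18. Then 0 of the 42 had an unadjusted p below 0.05, the G2/M median was -0.070 and 10 of the 24 G2/M genes were above 0. Without the 3 arrays that stand apart, 16 of 18 G1/S genes and 11 of 24 G2/M genes were above 0.

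Between the shMOF arrays, ERα(+) and ERα(-) overlapped for all of the 42 genes but BUB1, which differed by 0.25 ± 0.17 with ERα(+) higher. That is 1 of the 42, against 3.8% of tested genes apart in that direction and 5.7% in the other. Of the 18 G1/S genes 15 were below 0 (median -0.12) and of the 24 G2/M genes 16 were above 0 (median 0.08), against a median of -0.03 over all tested genes. limma called 0 of the 42 (background 0%), and 0 of the 42 had an unadjusted p below 0.05, against 5.33% of tested genes; with array quality weights it called 5, CCNE1, MCM2 and UHRF1 lower, and HMMR and MKI67 higher, or 11.9% of the 42 against 12.9% of tested genes. Without shMOF ERα(-) replicate 2, 11 of the 42 rather than 0 had an unadjusted p below 0.05. The share of all tested genes at that threshold is not given for this fit, so the count has no background. At an adjusted p below 0.05, the same fit called 11 of all tested genes and 0 of the 42. In the unweighted test MCM2 differed by -0.35 ± 0.17, UHRF1 by -0.33 ± 0.16 and CCNE1 by -0.27 ± 0.17. HMMR differed by 0.39 ± 0.24, MKI67 by 0.35 ± 0.21 and AURKB by -0.31 ± 0.18. Single arrays moved these values: without shMOF ERα(+) replicate 2, MCM2 stood at -0.17, UHRF1 at -0.16, AURKB at -0.14 and BUB1 at 0.17. Without shMOF ERα(-) replicate 1, CCNE1 stood at -0.15, HMMR at 0.25 and MKI67 at 0.20, and without shMOF ERα(-) replicate 2 the same genes stood at -0.45, 0.67 and 0.57. Within shMOF ERα(-), replicate 2 had high HMMR, MKI67 and TOP2A, at 9.28, 10.99 and 10.43, against 8.44 and 8.47, 10.24 and 10.44, and 9.67 and 9.999 in replicates 1 and 3.

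The interaction is the ERα(+) difference between shMOF and control less the ERα(-) one, and asks whether the difference between shMOF and control arrays depends on the ERα condition. Of the 18 G1/S genes 16 were below 0 (median -0.32), all 9 licensing and helicase genes among them, and of the 24 G2/M genes 13 were above 0 (median 0.02), against a median of -0.03 over all tested genes. limma called 0 of the 42 (background 0%) and 0 of the 14884, and 10 of the 42 had an unadjusted p below 0.05, 23.8% against 18% of tested genes. PLK1 had the smallest p, at -0.64 ± 0.22 (limma's adjusted p = 0.223), followed by AURKB at -0.72 ± 0.26 (adjusted p = 0.223 in limma). UHRF1, MCM2 and MCM5 stood at -0.59 ± 0.23, -0.60 ± 0.24 and -0.54 ± 0.24. KIF11 stood on the other side at 0.60 ± 0.26. Without shMOF ERα(+) replicate 2, AURKB stood at -0.55, MCM2 and UHRF1 at -0.42 and MCM5 at -0.36. Leaving out control ERα(-) replicate 1 put PLK1 at -0.50, and leaving out control ERα(+) replicate 3 put KIF11 at 0.43. Under alternatives other than leaving out 1 array, the values nearest 0 were -0.29 (AURKB), -0.33 (PLK1), -0.36 (MCM2), -0.38 (UHRF1), -0.33 (MCM5) and 0.40 (KIF11). With array quality weights limma called 11 of the 42: CDT1, MCM2, MCM3, MCM5, TYMS, UHRF1, PLK1 and AURKB below 0, and KIF11, HMMR and TOP2A above. That is 26.2% of the 42, against 21.9% of tested genes in the same weighted test. Without the 3 arrays that stand apart, 16 of 18 G1/S genes were still below 0, the median was -0.19, and 0 of the 42 had an unadjusted p below 0.05. The 95% interval of a gene reached a median of 0.49 to either side here and 0.34 in the comparisons between groups, so that smaller differences could not be resolved.

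Other genes of the same pathways were counted in 4 further lists, and limma called 0 of them in any of the 5 comparisons. Of the further replication genes, 14 of 41 were measured, 6 above and 8 below 0 for shMOF against control in ERα(+) (median -0.08). FEN1, which trims Okazaki fragments, and GINS3, a partner of GINS2, differed by -0.32 ± 0.13 and -0.29 ± 0.11, and MCM8, a helicase of recombination outside the replicative ring, by 0.65 ± 0.24. Of the further mitosis genes, 58 of 71 were measured, 37 above and 21 below 0 in ERα(+) (median 0.11). The groups were apart for 13 of the 58 that were higher and 6 that were lower, against 12.2% and 14.1% of tested genes. SGO2, which guards centromeric cohesion, DEPDC1, and KNTC1, which brings checkpoint proteins to kinetochores, differed by 0.72 ± 0.20, 0.68 ± 0.22 and 0.57 ± 0.19, with adjusted p = 0.223 in limma. In ERα(-) the same list had 29 above and 29 below 0 (median -0.002), CENPH at -0.29 ± 0.11 and the motor KIFC1 at 0.32 ± 0.14.

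Of the DREAM and MuvB subunits and MYB genes, 7 of 7 were measured, 5 above and 2 below 0 in ERα(+). LIN37, a MuvB subunit, and MYBL2, which encodes B-MYB, differed by -0.43 ± 0.15 and -0.41 ± 0.18, and MYBL1 by 0.57 ± 0.21. Of the regulators of G1 and inhibitors of cyclin-dependent kinases, 17 of 27 were measured, 9 above and 8 below 0 in ERα(+) (median 0.01). RB1, the retinoblastoma gene, differed by 0.66 ± 0.24, CDK6, a G1 kinase, by 0.33 ± 0.15 and CCND3, a D-type cyclin, by -0.35 ± 0.16. E2F7, a repressing E2F factor like E2F8, differed by -0.53 ± 0.18 in ERα(-), between 8.41 ± 0.33 in shMOF and 8.93 ± 0.31 in control arrays (SD, n = 3 each). Between control arrays E2F7 differed by -0.56 ± 0.18 and CDC25B, a phosphatase of entry into mitosis, by 0.32 ± 0.11.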

How the data were processed

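Per the submitters' processing notes, the authors ran RMA in Affymetrix Expression Console 1.4.1, and what they deposited are log2 values. Its steps are background correction, quantile normalization and a median polish over each set's probes, which pulls small signals together, so that changes of dim genes can be understated. No build for the probe sets is given in the sources used here. The platform annotation gave 1 gene symbol to 16098 of 53617 probe sets, several to 0 and none to 37519, with symbols updated by gene ID through RefSeq (GRCh38.p14). Of several probe sets of a gene (779 genes), the one with the highest mean over the 12 arrays was taken, which left 14884 genes, all tested with no filter on dim genes.

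In R 4.3.3, limma 3.58.1 fitted 1 mean per group (functions lmFit and eBayes; two-sided; Benjamini-Hochberg over all 14884 genes within each of the 5 comparisons, called at an adjusted p below 0.05). The script was tested on simulated data. With 3 arrays a side the smallest exact p is 0.1, so tests rest on limma's spread, moderated across genes. The number of arrays limits the precision. The members, the further lists and the tests were chosen with earlier results of these data known. Values on every array are given for the 3 members of each phase with the smallest p in each comparison, for MKI67, PCNA, CCNB1, CCNE1, CDK1 and MCM2, and for the members of each phase with the highest and lowest mean. Of each further list, up to 3 genes per comparison with the smallest p may be named. KIF11, HMMR and PLK1 were picked for their promoters after their values were seen. Alternatives were leaving out each array in turn, a 1.5-fold threshold, a random block for the first letter of each sample's code, a block for the replicate number, fits on the compared groups alone, weights for array quality, a trended prior, a second normalization, a shift of every array to 1 median, a filter on dim genes, and other choices among probe sets. The code letters ran in the order of the groups. Only B was shared, by control ERα(-) replicate 3 and shMOF ERα(-) replicate 1. The letter block therefore cannot tell code order from group.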

Additional observations from a re-analysis of the deposited data

How the results depend on the processing

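The number of members called was 0 in every comparison under all 24 alternatives (23 for the interaction, for which fits on the compared groups alone do not exist) except array quality weights, with which limma called 5 for shMOF against control in ERα(+), 5 for ERα(+) against ERα(-) on the shMOF arrays, and 11 for the interaction, near the 10.9%, 12.9% and 21.9% of all genes it called; leaving out each array in turn gave 0 to 0. The weights ran from 0.359 (shMOF ERα(-) replicate 2) to 8.86 (shMOF ERα(-) replicate 3), so that few arrays carried that fit, and it called 3258 of the 14884 genes in the interaction. Without the 3 arrays that stand apart, the G1/S median was -0.13 for shMOF in ERα(+) and -0.19 for the interaction, with the direction kept. The interaction fit still held shMOF ERα(-) replicate 2, the array with the lowest weight. Leaving out each array in turn, the G1/S median lay between -0.32 and -0.19 for shMOF in ERα(+), between -0.015 and 0.18 for shMOF in ERα(-), where 0.18 is without shMOF ERα(-) replicate 2, between 0.10 and 0.21 for ERα in control arrays, between -0.23 and -0.06 for ERα(+) against ERα(-) with shMOF, and in the interaction between -0.45 and -0.23. The G2/M median lay between 0.06 and 0.15, -0.01 and 0.14, -0.070 and 0.15, 0.03 and 0.11, and -0.04 and 0.15 in the same comparisons, where -0.070 is without control ERα(-) replicate 1. CCNE2 for shMOF in ERα(-) stood at 0.010 without control ERα(-) replicate 1 or without the 3 arrays, on the other side of 0. With each array left out in turn, members at an unadjusted p below 0.05 numbered 0 to 17 for shMOF in ERα(+). They numbered 0 to 5 for shMOF in ERα(-) and 0 to 8 for ERα in control arrays. The range was 0 to 11 for ERα(+) against ERα(-) with shMOF and 2 to 18 in the interaction. The 18 came without shMOF ERα(-) replicate 2. At an adjusted p below 0.05, limma called 570 of all genes and 0 members in the interaction without that array. No share of all tested genes at the unadjusted threshold is given for fits with arrays left out, so these counts have no background. Samples of the same replicate number did not deviate together as a rule. Over 18 pairs r ran from -0.18 to 0.45, and 5 pairs were above 0.1. The median was 0.05, against -0.04 over 36 other pairs, so the numbers are not taken as a pairing. Replicate 2 of shMOF ERα(-), control ERα(+) and shMOF ERα(+) did deviate together in part. Their r was 0.45 for shMOF ERα(-) with shMOF ERα(+), 0.38 for control ERα(+) with shMOF ERα(+) and 0.24 for shMOF ERα(-) with control ERα(+). Against these arrays, in the order first named, replicate 2 of control ERα(-) stood at -0.18, 0.07 and -0.04. With the replicate number as a block, limma called 0 members in each comparison. At an unadjusted p below 0.05 stood 16 members for shMOF in ERα(+), against 15 without the block, and 1 against 1 for shMOF in ERα(-). The counts were 7 against 6 for ERα in control arrays, 2 against 0 for ERα with shMOF and 12 against 10 in the interaction. The cause of these shifts was not tested.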
